A study of Mus musculus with 8 samples.

Results

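The genes described here are 5 small proline-rich protein genes, Sprr1a, Sprr1b, Sprr2d, Sprr2h and Sprr3, read in basal epidermal cells of mouse back skin. They are a listed set, each found as a probe set whose only gene symbol is that of the member. All 5 were found among the 17097 genes of the array, and each had 1 probe set. Values come from 3 groups of CD1 mice, an outbred strain, with 1 array per mouse. EXPD4 stands for 3 mice whose back skin had been expanded by force and was sampled at day 4. TPA stands for 2 mice treated with 12-O-tetradecanoylphorbol-13-acetate, a tumour promoter of the phorbol ester class known to thicken and inflame mouse skin through protein kinase C. CTRL stands for 3 mice labelled as controls. The dose, schedule and ages were not given in the sources used here. In all groups 300 cells were sorted per sample for the surface integrin ITGA6 and against CD34, so interfollicular and infundibulum cells passed the gate and bulge cells did not.

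Small proline-rich proteins are precursors of the cornified envelope, the protein shell that replaces the plasma membrane of dying keratinocytes. Transglutaminases link their glutamine and lysine residues to loricrin, involucrin and each other, and the proline-rich repeats between the ends act as flexible bridges. The genes sit together in the epidermal differentiation complex beside involucrin and the late cornified envelope genes. They are known as stress-induced genes of squamous epithelia: the first human members were found in keratinocytes treated with ultraviolet light or phorbol ester. SPRR1 proteins are found in suprabasal cells and in appendages. SPRR2 proteins form the largest subfamily, with many near-identical copies in the mouse. SPRR3, also called esophagin, is best known from the oral cavity and oesophagus.

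In the RefSeq annotation of GRCm38.p6 the cluster spans chromosome 3 from base 92215835 to base 92500493, which is 284.7 kb. It holds 17 Sprr genes, 14 of them protein-coding and 3 pseudogenes, and 10 were measured here. Beside the 5 members these are Sprr2a1, Sprr2f, Sprr2i, Sprr2k and the pseudogene Sprr2j-ps. The Sprr2 copies run along the plus strand, and Sprr1b, Sprr3 and Sprr1a lie on the minus strand. The 250 bases before the annotated start are shown for the 5 members. Sprr2k is added as the measured copy whose window is closest to that of Sprr2h. Sequences are those of RefSeq (GRCm38.p6), written along the gene's own strand from 5′ to 3′ and ending at the base before the start. The Sprr1b sequence stops 38 bases before its start, where a predicted longer transcript begins. Capitals mark matches to the AP-1 motif TGANTCA, the octamer ATTTGCAT and the TATA box TATAAA.

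Sprr1a, chr3:92485882-92486131, minus strand: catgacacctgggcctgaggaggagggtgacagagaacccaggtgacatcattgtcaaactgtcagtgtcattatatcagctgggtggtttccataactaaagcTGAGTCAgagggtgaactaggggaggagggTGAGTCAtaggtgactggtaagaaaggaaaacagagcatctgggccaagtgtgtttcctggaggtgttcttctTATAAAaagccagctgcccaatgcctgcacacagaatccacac
Sprr1b, chr3:92438818-92439029, minus strand: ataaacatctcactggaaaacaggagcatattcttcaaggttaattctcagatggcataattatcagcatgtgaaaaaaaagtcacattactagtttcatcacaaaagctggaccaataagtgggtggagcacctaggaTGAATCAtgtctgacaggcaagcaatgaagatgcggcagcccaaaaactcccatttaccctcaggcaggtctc
Sprr2d, chr3:92338890-92339139, plus strand: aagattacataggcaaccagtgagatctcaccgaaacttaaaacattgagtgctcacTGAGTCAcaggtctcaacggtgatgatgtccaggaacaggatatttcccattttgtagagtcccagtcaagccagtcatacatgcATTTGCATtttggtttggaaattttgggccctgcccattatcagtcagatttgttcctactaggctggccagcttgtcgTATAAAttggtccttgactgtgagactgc
Sprr2h, chr3:92385435-92385684, plus strand: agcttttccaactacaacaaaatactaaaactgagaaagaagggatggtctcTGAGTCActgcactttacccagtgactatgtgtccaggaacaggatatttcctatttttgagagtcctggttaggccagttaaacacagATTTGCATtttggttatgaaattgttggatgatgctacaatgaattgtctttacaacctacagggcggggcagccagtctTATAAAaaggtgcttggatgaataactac
Sprr2k, chr3:92432332-92432581, plus strand: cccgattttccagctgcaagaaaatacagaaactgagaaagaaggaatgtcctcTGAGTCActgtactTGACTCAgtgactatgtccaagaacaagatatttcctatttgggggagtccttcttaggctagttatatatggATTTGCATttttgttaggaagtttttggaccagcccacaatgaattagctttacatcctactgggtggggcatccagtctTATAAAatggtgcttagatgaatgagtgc
Sprr3, chr3:92458721-92458970, minus strand: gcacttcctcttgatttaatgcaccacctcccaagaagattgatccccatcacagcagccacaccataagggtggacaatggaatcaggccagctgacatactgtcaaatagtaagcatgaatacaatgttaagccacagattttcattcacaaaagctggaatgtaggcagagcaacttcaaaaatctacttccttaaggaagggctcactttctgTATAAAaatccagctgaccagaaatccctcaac

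An AP-1 match stood at -193 to -187 in Sprr2d, at -198 to -192 in Sprr2h and at -196 to -190 in Sprr2k, counted from the start. Sprr2k held a further match at -182 to -176. Sprr1a held AP-1 matches at -146 to -140 and at -116 to -110, and Sprr1b held 1 at -111 to -105. None was found in the Sprr3 window, and none in that of Sprr2a1, whose signal was the highest of the measured Sprr genes. The annotated Sprr2a1 gene spans 6657 bases, against 1734 for Sprr2d and 1640 for Sprr2h, and its window held no TATA match. Whether its annotated start is the one used in these cells was not tested. Sprr2f and Sprr2i held 1 match each, and their signals were under background on most arrays. Whether matches go with signal was not tested. Of the 14 Sprr windows in the table, 9 held the motif, against 6.7% of all 32851 promoter windows cut to the same 250 bases. The octamer was present in 7 of the 14, each an Sprr2 copy, against 1.6% of all windows, and the TATA box was present in 10, against 12.4%. The windows of Sprr2a1 and Sprr2a2 are the same 250 bases, and that of Sprr2a3 holds most of them. Several other Sprr2 windows are alike (69.6% identical between Sprr2d and Sprr2i), so these counts are not of independent windows.

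Other motifs were searched in the same way on both strands. The core of the antioxidant response element, TGACNNNGC, was present in 2 Sprr windows against 10.2% of all windows. Its match in Sprr1a, at -148 to -140 on the opposite strand, overlaps an AP-1 match there. The STAT motif TTCNNNGAA was present in 1 Sprr window against 7.0% of all, and the ETS motif AGGAAG in 7 against 29.5%. The ETS matches of Sprr2a1, Sprr2a2 and Sprr2a3 lie in the same repeated sequence. At the best ungapped offset of up to 30 bases, the windows of Sprr2h and Sprr2k were 63.2% identical and those of Sprr2d and Sprr2h 47.4%. The windows of Sprr1a, Sprr1b and Sprr3 were 34.8% to 36.3% identical to each other. A match is a run of letters and no evidence of binding, and the motifs were picked after these windows and the signals had been seen.

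**Figure D1:**
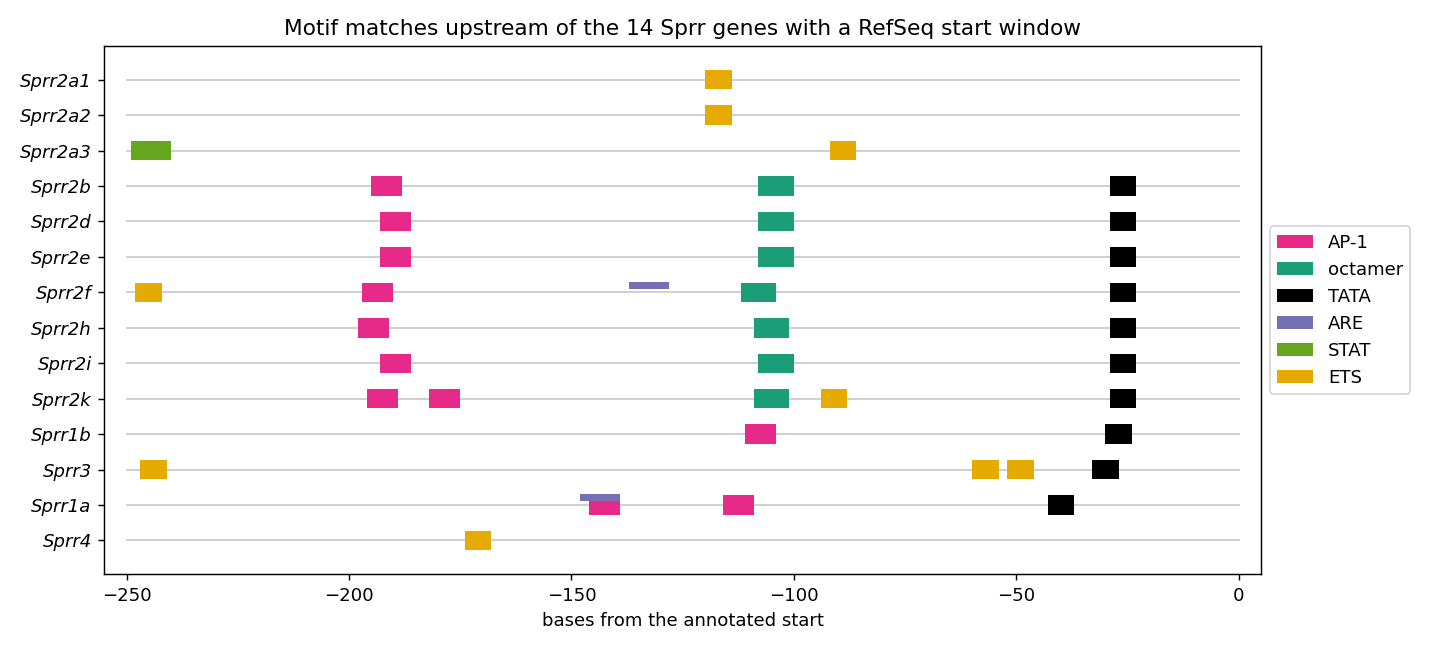
Position of motif matches in the 250 bases before the annotated start of 14 Sprr genes, in bases from the start, with genes in chromosomal order from top to bottom. The Sprr2 copies from Sprr2b to Sprr2k share the order AP-1, octamer and TATA, and Sprr1a and Sprr1b hold AP-1 and TATA matches without the octamer.

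Values are log2 signals of RMA, a method that corrects background, normalizes arrays to each other and summarises the probes of a set. They are given as mean ± SD, and differences as log2 differences ± SE. A change counts as called when its adjusted p in a limma fit over all genes is under 0.05. Detection calls were not used here. As a stand-in, 79 chemosensory receptor genes that skin is not known to use (of the olfactory, vomeronasal and trace amine families) set a background limit on each array at their 95th percentile, 6.37 to 6.55. Precision is limited by having 8 arrays. Arrays of the same group correlated across genes at 0.990 to 0.995 and arrays of different groups at 0.961 to 0.987. The basal keratin Krt5 stood at 13.29 ± 0.03, 13.33 ± 0.01 and 13.28 ± 0.05 in the EXPD4, TPA and CTRL arrays, and Cd34 lay under the limit on all arrays.

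The arrays are named by their labels, since keratins of wounded and hyperproliferative epidermis ran against them. Krt16 was at 12.15 ± 0.07 in the arrays labelled TPA and at 13.04 ± 0.01 in those labelled CTRL, and Krt6a at 12.54 ± 0.15 and 13.23 ± 0.06. Not all stress genes ran this way. Of 16 measured AP-1, ETS, KLF and SP factors, 10 were called higher and 2 lower in the arrays labelled TPA. Jun was higher there by 1.20 ± 0.12. Whether the labels were exchanged was not tested. Were the labels of TPA and CTRL exchanged, each difference of TPA against CTRL below would change sign, and each difference of EXPD4 against CTRL would be the one given here against TPA. For Sprr1b that would be 1.48 in place of -0.999, for Sprr2h 3.22 in place of -1.05, and for Sprr1a 0.07 in place of -1.57. In sorted bulk cells, fewer cells of a type and less RNA per cell cannot be told apart. The Sprr2 copies are so alike that a probe set may read several of them, and the suffix of the Sprr2h probe set (s_at) marks it as shared by several transcripts in the maker's naming. The values of Sprr2d and Sprr2h are therefore uncertain as values of single copies.

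Of the 5 genes, 4 were lower in TPA than in CTRL arrays, and 3 of these 4 were also called lower in EXPD4 than in CTRL arrays. In TPA the log2 difference from CTRL was -4.27 for Sprr2h, whose TPA arrays lay just above the background limit, -2.48 for Sprr1b and -1.64 for Sprr1a. For Sprr2d, with 1 of 2 TPA arrays under the background limit, it was -4.45 with signals raised to that limit and -4.72 as deposited. Sprr3 stayed under the background limit throughout. Across all genes, 10.6% were called lower and 10.2% higher in TPA against CTRL. Between EXPD4 and CTRL 5.78% were called lower and 5.69% higher.

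**Figure D2:**
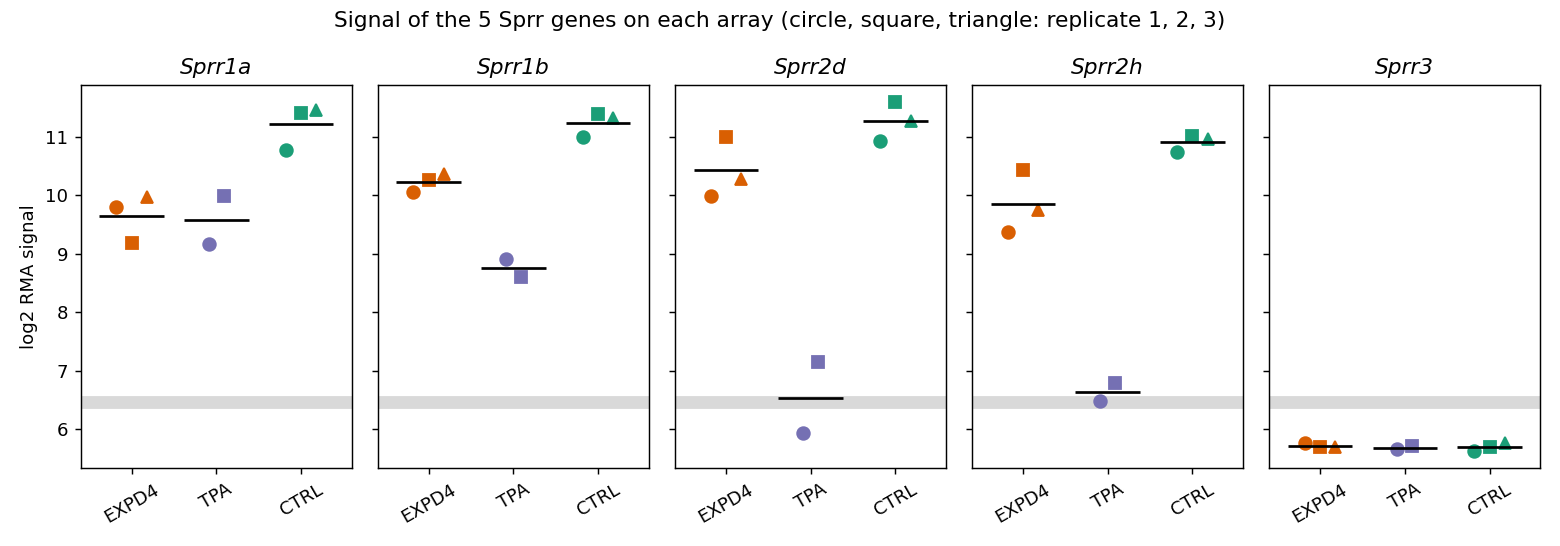
Log2 RMA signal (vertical axis) of Sprr1a, Sprr1b, Sprr2d, Sprr2h and Sprr3 on each of the 8 arrays, with the EXPD4, TPA and CTRL groups along the horizontal axis; black lines are group means, and the grey band is the range of the background limit, 6.37 to 6.55. Sprr2d and Sprr2h lie close to the band in the TPA arrays only, and Sprr3 lies under it on every array.

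Sprr1a, an envelope precursor that is also known from regenerating neurons, had signals of 9.80, 9.18 and 9.98 in the EXPD4 arrays, 9.18 and 9.98 in the TPA arrays, and 10.78, 11.41 and 11.46 in the CTRL arrays. All EXPD4 and TPA arrays lay under all CTRL arrays, while EXPD4 and TPA arrays covered the same range. The gene was lower in EXPD4 than in CTRL by -1.57 ± 0.28 (2.96-fold, adjusted p = 0.0082) and lower in TPA than in CTRL by -1.64 ± 0.31 (3.11-fold, adjusted p = 0.00642). Between EXPD4 and TPA it differed by 0.07 ± 0.31 (adjusted p = 0.944), with a 95% interval from -0.65 to 0.79. A p above the threshold does not show that the groups are alike.

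Sprr1b, the closest relative of Sprr1a, showed a different order. It stood at 10.06, 10.27 and 10.37 in the EXPD4 arrays, 8.92 and 8.60 in the TPA arrays, and 10.99, 11.39 and 11.32 in the CTRL arrays. No 2 groups overlapped, with EXPD4 between the others. It was lower in EXPD4 than in CTRL by -0.999 ± 0.14 (2.00-fold, adjusted p = 0.00212) and lower in TPA than in CTRL by -2.48 ± 0.15 (5.57-fold, adjusted p = 1.53e-05). Between EXPD4 and TPA it was higher in EXPD4 by 1.48 ± 0.15 (2.79-fold, adjusted p = 0.00147).

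Sprr2d had signals of 9.997, 10.995 and 10.28 in the EXPD4 arrays, 5.93 and 7.15 in the TPA arrays, and 10.93, 11.59 and 11.27 in the CTRL arrays. EXPD4 replicate 2 reached into the CTRL range, and TPA replicate 1 lay under the background limit. The TPA arrays were lower than the CTRL arrays by -4.72 ± 0.39 (adjusted p = 7.14e-05), and EXPD4 was higher than TPA by 3.88 ± 0.39 (adjusted p = 0.00137). Once low signals were set to the limit, these differences were -4.45 (adjusted p = 1.24e-05) and 3.61 (adjusted p = 0.000289). Between EXPD4 and CTRL the difference of -0.84 ± 0.35 did not pass (adjusted p = 0.180), and its 95% interval ran from -1.63 to -0.05.

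Sprr2h followed Sprr2d closely. It had 9.38, 10.43 and 9.76 in the EXPD4 arrays, 6.48 and 6.79 in the TPA arrays, and 10.73, 11.02 and 10.97 in the CTRL arrays. No groups overlapped here, and both TPA arrays were just above the background limit of 6.47 and 6.48. So near the limit, the sizes of the differences from TPA are uncertain. The gene was lower in TPA than in CTRL by -4.27 ± 0.26 (19.3-fold, adjusted p = 1.60e-05), and higher in EXPD4 than in TPA by 3.22 ± 0.26 (9.33-fold, adjusted p = 0.000519). EXPD4 was lower than CTRL by -1.05 ± 0.24 (2.07-fold, adjusted p = 0.0222). That call was lost without CTRL replicate 2 or 3 or without EXPD4 replicate 1 or 3 (adjusted p up to 0.0804). Mice with an active NRF2 transgene in keratinocytes are known to raise Sprr2d and Sprr2h.

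Sprr3 had signals of 5.69 to 5.77 in the EXPD4 arrays, 5.66 and 5.71 in the TPA arrays, and 5.64 to 5.77 in the CTRL arrays. All 8 values lie under the limit of their array, so the probe set gave no reading of a change. The differences of 0.02 ± 0.07 between EXPD4 and CTRL and -0.01 ± 0.08 between TPA and CTRL did not pass (adjusted p = 0.920 and 0.924). Between EXPD4 and TPA the difference was 0.03 ± 0.08 (adjusted p = 0.878).

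Between EXPD4 and TPA, 3 of the 5 members were called higher in EXPD4 and 0 lower, beside 3.16% of all genes called higher and 2.81% called lower. The median difference of the members was -0.999 between EXPD4 and CTRL, -2.48 between TPA and CTRL and 1.48 between EXPD4 and TPA. The medians of all genes were 0.01, -0.03 and 0.03. EXPD4 and TPA share the CTRL arrays in these comparisons. With all members centred on their own means, the root mean square difference over the 8 arrays was 0.36 between Sprr2d and Sprr2h, 0.66 between Sprr1a and Sprr1b, and 1.60 between Sprr1a and Sprr2d. Whether the change differed between genes was not tested.

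The members also differed within groups. EXPD4 replicate 2 was the highest EXPD4 array for Sprr2d and Sprr2h and the lowest for Sprr1a. TPA replicate 1 was the lower TPA array for Sprr1a, Sprr2d and Sprr2h and the higher for Sprr1b. CTRL replicate 1 was the lowest CTRL array for Sprr1a, Sprr1b, Sprr2d and Sprr2h. It also stood apart in markers of endothelial cells, whose mean signal was 7.99 there against 6.44 and 6.48 in the other CTRL arrays. Without this array the TPA differences were -1.86 for Sprr1a, -2.60 for Sprr1b, -4.89 for Sprr2d and -4.35 for Sprr2h, and those of EXPD4 were -1.79, -1.12, -1.01 and -1.13.

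Of the remaining 5 Sprr genes, 1 was called higher and 1 lower in EXPD4 against CTRL. In TPA against CTRL 4 were called lower, of which Sprr2f and Sprr2j-ps rest on signals under the background limit. The shares over all genes were 5.69% higher and 5.78% lower in EXPD4, and 10.6% lower in TPA. Sprr2a1, a copy known in the mouse gut for its response to bacteria, was the brightest probe set of the family. It had 13.50, 13.56 and 13.50 in the EXPD4 arrays, 12.87 and 12.93 in the TPA arrays, and 13.26, 13.18 and 13.09 in the CTRL arrays. It was higher in EXPD4 than in CTRL by 0.34 ± 0.07 (adjusted p = 0.0151) and higher in EXPD4 than in TPA by 0.62 ± 0.08 (adjusted p = 0.00347). These levels lie near the array maxima of 13.69 to 13.697, where differences are compressed. The rise against CTRL was lost without CTRL replicate 2 or 3 or EXPD4 replicate 2 (adjusted p up to 0.0583). The fall of -0.27 ± 0.08 in TPA against CTRL (adjusted p = 0.0385) did not hold in 7 of the 8 fits with an array removed, and also with arrays centred on their medians (adjusted p = 0.0800).

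Sprr2k was at 9.09, 9.07 and 9.03 in the EXPD4 arrays, 8.64 and 8.85 in the TPA arrays, and 9.10, 9.45 and 9.44 in the CTRL arrays. The highest EXPD4 array lay just under the lowest CTRL array, and the TPA arrays lay under both groups. It was lower in TPA than in CTRL by -0.59 ± 0.12 (1.503-fold, adjusted p = 0.00882), a small change beside that of Sprr2h, whose upstream window is the most like its own among those shown. The call was lost without TPA replicate 1 (adjusted p = 0.0678). In EXPD4 against CTRL it differed by -0.27 ± 0.11 (adjusted p = 0.172).

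Sprr2f, a copy known from the mouse uterus, had 4.94, 5.004 and 5.08 in the EXPD4 arrays, 4.56 in both TPA arrays, and 6.98, 7.55 and 5.78 in the CTRL arrays. Only CTRL replicates 1 and 2 were above the background limit. The CTRL mean was at least 1.24-fold above the limit on the EXPD4 arrays and at least 1.23-fold above that on the TPA arrays. The calls against CTRL (adjusted p = 0.0158 in EXPD4 and 0.00516 in TPA) did not pass once signals were raised to the limit (adjusted p = 0.125 and 0.148). The EXPD4 call was also lost without CTRL replicate 1 or EXPD4 replicate 1. Sprr2i was above the limit on 1 CTRL array alone and passed in no comparison (lowest adjusted p = 0.0626). Sprr2j-ps was under it on all arrays, and its call in TPA against CTRL (adjusted p = 0.0348) was lost with signals raised to the limit (adjusted p = 0.738).

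**Figure D3:**
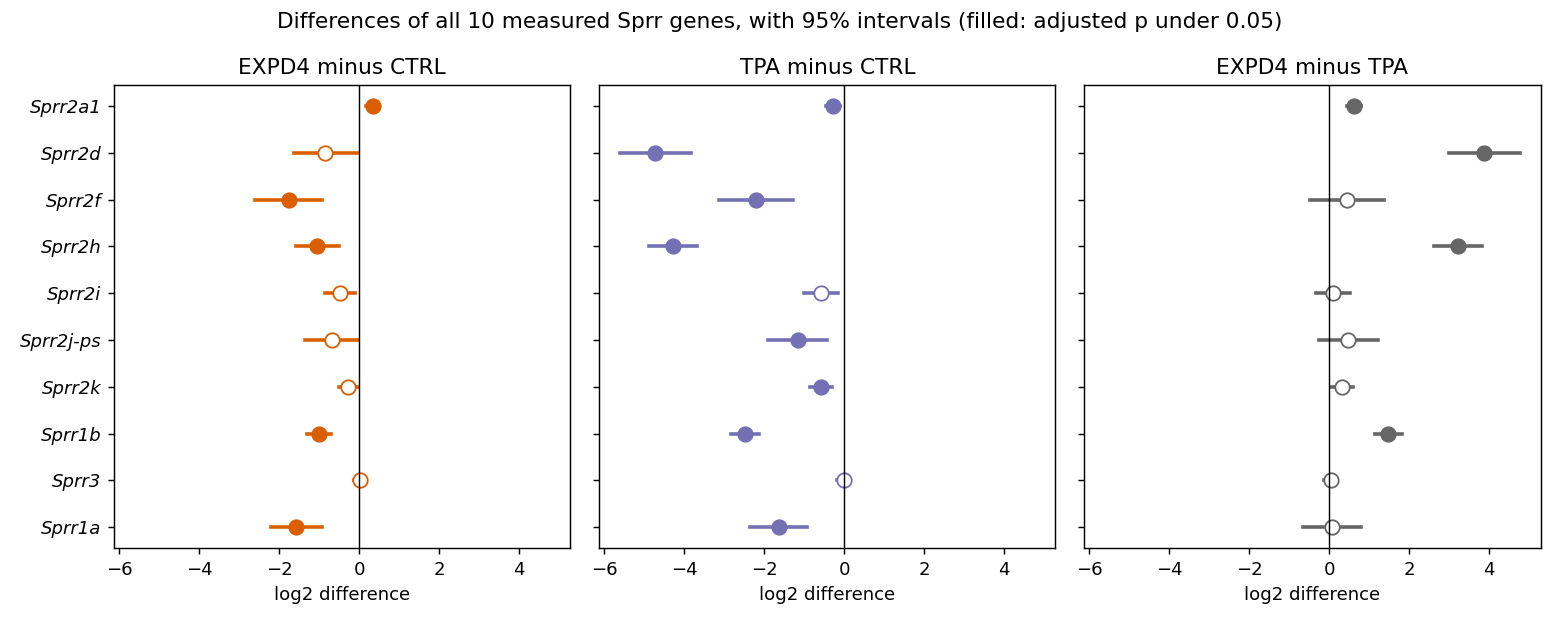
Log2 differences (horizontal axis) of the 10 measured Sprr genes in 3 comparisons, with 95% intervals from the limma fit and genes in chromosomal order from top to bottom; filled points have an adjusted p under 0.05. Sprr2d and Sprr2h differ most between TPA and CTRL, Sprr1a stands at -1.57 in EXPD4 minus CTRL and -1.64 in TPA minus CTRL, and Sprr2a1 lies above 0 in EXPD4 minus CTRL.

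The genes around the cluster were next set beside it. From Lor to S100a10 the array measured 37 genes of the epidermal differentiation complex, the 10 Sprr genes among them. In TPA against CTRL 8 of the 10 Sprr genes were called lower and 0 higher, beside 0 of the 27 other genes in either direction. Among the 8 are Sprr2f and Sprr2j-ps, whose calls rest on signals under the limit. The shares over all genes were 10.2% higher and 10.6% lower in TPA against CTRL, and 5.69% and 5.78% in EXPD4 against CTRL. In EXPD4 against CTRL 4 Sprr genes were called lower and 1 higher, beside 1 lower of the 27. That gene was S100a10, a calcium-binding protein gene (-0.31 ± 0.07, adjusted p = 0.0193). Of the 27, 15 lay under the background limit on every array, Lor and Flg included, and could not show a fall. Involucrin (Ivl), the next measured gene after Sprr1a, was at 8.19 ± 0.11 in EXPD4, 8.05 ± 0.31 in TPA and 8.53 ± 0.18 in CTRL arrays. Its differences against CTRL of -0.33 ± 0.13 and -0.48 ± 0.15 did not pass (adjusted p = 0.168 and 0.0532). Some neighbours that did not pass had differences in the range of the Sprr genes. Lce1i, a late cornified envelope gene, differed by -1.46 ± 0.43 in EXPD4 (adjusted p = 0.0633) and by -1.48 ± 0.48 in TPA (adjusted p = 0.0594). Prr9, a proline-rich gene, differed by -0.91 ± 0.27 in EXPD4 (adjusted p = 0.0658) and by -0.56 ± 0.30 in TPA (adjusted p = 0.250). Lce1i and Prr9 were chosen after their values had been seen. This interval was drawn after the values had been seen.

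**Figure D4:**
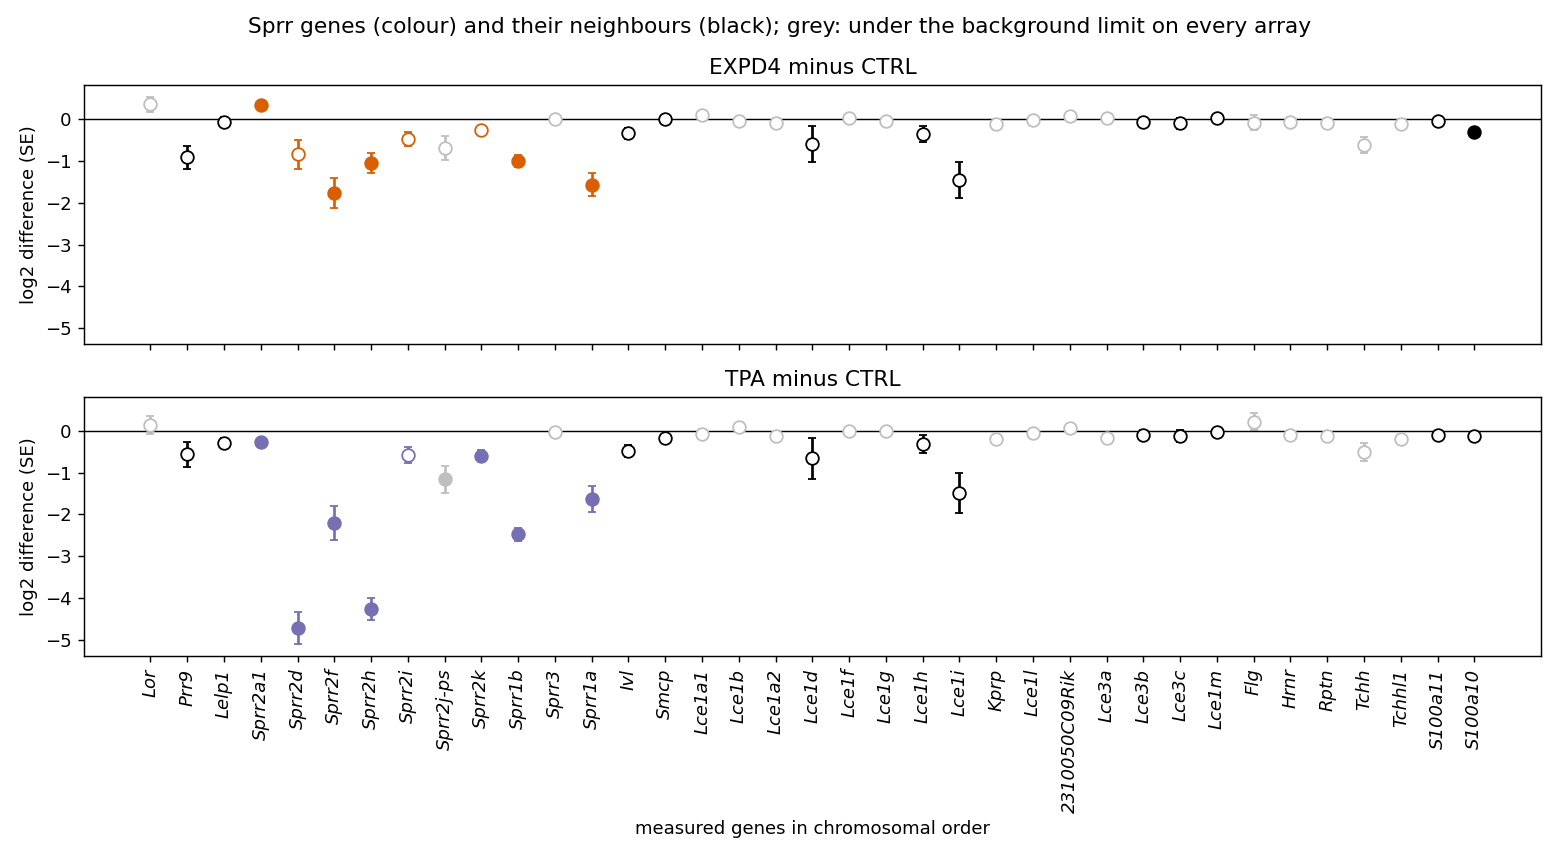
Log2 differences (vertical axis, with SE) of 37 measured genes of the epidermal differentiation complex in chromosomal order, for EXPD4 minus CTRL (upper panel) and TPA minus CTRL (lower panel); filled points have an adjusted p under 0.05, and grey points lay under the background limit on every array. In the lower panel Sprr2d and Sprr2h stand at -4.72 and -4.27, and none of the neighbours outside the family is filled, with Lce1i at -1.48.

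Proteins that work with the small proline-rich proteins went in several directions. Counts in this and the lists that follow stand beside the shares called over all genes. These were 5.69% higher and 5.78% lower in EXPD4 against CTRL, and 10.2% higher and 10.6% lower in TPA against CTRL. Tgm1, the membrane-bound transglutaminase of keratinocytes, was the 1 called member of 4 transglutaminases in each comparison with CTRL. It stood at 9.05 ± 0.18 in EXPD4, 8.003 ± 0.13 in TPA and 10.11 ± 0.38 in CTRL arrays and differed from CTRL by -1.06 ± 0.18 in EXPD4 (adjusted p = 0.00631) and -2.11 ± 0.20 in TPA (adjusted p = 0.000159). Tgm2 and Tgm3 did not pass in any comparison, and Tgm5 was under the limit on all arrays. Among 13 measured cornified envelope proteins outside the cluster, 1 was higher and 3 lower in EXPD4, and 3 were higher and 3 lower in TPA, with medians of 0.02 and 0.03. The 3 that fell in both were Csta1, a cysteine protease inhibitor (-1.03 ± 0.11 in EXPD4 and -2.57 ± 0.12 in TPA), cornifelin (Cnfn, -1.64 ± 0.10 and -1.53 ± 0.11) and annexin A1 (Anxa1, -0.44 ± 0.08 and -0.58 ± 0.08). Krtdap was called higher in both (0.56 ± 0.08 in EXPD4 and 0.52 ± 0.09 in TPA). Serpinb2 (1.28 ± 0.20) and Ppl (0.62 ± 0.15) were called higher in TPA. In the list of late cornified envelope and neighbouring genes, 0 of 24 measured members were called in any of the 3 comparisons. Of these 24, 14 lay under the limit on every array.

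Among suprabasal markers more were called higher than lower in both comparisons with CTRL. Of 13 measured members, 7 were higher and 2 lower in EXPD4 against CTRL, with a median of 0.62, and 6 were higher and 3 lower in TPA, with a median of 0.58. Grhl3, a factor of epidermal differentiation, was lower in EXPD4 (-0.72, adjusted p = 0.0180) and in TPA (-0.82, adjusted p = 0.0102). Krt10, a keratin of the first suprabasal layers, was at 12.73 ± 0.03 in EXPD4, 12.72 ± 0.01 in TPA and 11.26 ± 0.57 in CTRL arrays. Krt2, with the smallest p of the list in both comparisons, was higher by 5.72 ± 0.28 in EXPD4 and 5.97 ± 0.31 in TPA. It stood at 12.33 ± 0.07 in EXPD4, 12.58 ± 0.06 in TPA and 6.61 ± 0.69 in CTRL arrays, with 2 of 3 CTRL arrays above the background limit. Stress keratins and S100 alarmins fell with the Sprr genes in TPA: 0 of 7 measured members were higher and 5 lower in TPA against CTRL, with a median of -0.89, and 0 were higher and 1 lower in EXPD4, with a median of -0.14. S100a8, an alarmin of stressed keratinocytes and neutrophils, was lower in TPA by -3.25 ± 0.36 (adjusted p = 0.000343), with 1 of 2 TPA arrays under the background limit. Krt6b, among the 5, had 6.47 and 11.27 in the TPA arrays, so its 2 arrays were far apart.

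Regulators studied at Sprr promoters moved in both directions. Of 16 measured AP-1, ETS, KLF and SP factors, 10 were higher and 2 lower in TPA against CTRL, with a median of 0.47, and 1 was higher and 2 lower in EXPD4, with a median of 0.09. Jun, an AP-1 subunit, was at 11.08 ± 0.16 in EXPD4, 11.96 ± 0.02 in TPA and 10.76 ± 0.14 in CTRL arrays, higher in TPA by 1.20 ± 0.12 (adjusted p = 0.000171). Ets1 was lower in EXPD4 by -1.14 ± 0.16 (adjusted p = 0.00216) and lower in TPA by -1.10 ± 0.17 (adjusted p = 0.00238). Elf3, an epithelial ETS factor known to act on SPRR genes in human cells, was under the limit in both TPA arrays and at least 1.96-fold lower there than in CTRL (adjusted p = 0.00173). Ets1 and Elf3 were the 2 factors called lower in TPA. Other ETS factors were higher there, Ehf by 0.64 ± 0.15 (adjusted p = 0.0157) and Ets2 by 0.47 ± 0.09 (adjusted p = 0.00519). Atf3 (1.17 ± 0.12), Jund (0.77 ± 0.10) and Klf4 (0.47 ± 0.07) were also called higher in TPA. Array signals of a factor's transcript say nothing of its activity.

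Genes tied to NRF2, the factor of the oxidative stress response, fell more often than they rose. Of 12 measured members, 1 was higher and 7 lower in TPA against CTRL, with a median of -0.79, and 1 was higher and 4 lower in EXPD4, with a median of -0.16. Slpi, a protease inhibitor known to rise with Sprr2d and Sprr2h in mice with active NRF2, had 9.25, 8.21 and 9.48 in the EXPD4 arrays, 7.66 and 7.69 in the TPA arrays, and 9.99, 11.45 and 10.86 in the CTRL arrays. It was lower in EXPD4 by -1.79 ± 0.40 (adjusted p = 0.0215) and in TPA by -3.09 ± 0.44 (adjusted p = 0.00142). Hmox1, heme oxygenase, was lower by -1.82 ± 0.14 in EXPD4 and by -3.10 ± 0.16 in TPA. Gstm1, a glutathione transferase, was higher in both. Nfe2l2, which encodes NRF2, was at -0.03 ± 0.11 in EXPD4 (adjusted p = 0.937) and lower by -0.54 ± 0.13 in TPA (adjusted p = 0.0167).

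Genes with the nearest pattern over the 8 arrays, by root mean square difference of centred signals, were named for each member that could be read. For Sprr1a they were Sdr9c7 (0.31), an enzyme of the epidermal lipid barrier, Schip1 (0.32) and Degs2 (0.32), a ceramide enzyme. For Sprr1b they were Sult2b1 (0.17), cholesterol sulfotransferase, Slc16a3 (0.19), a lactate transporter, and E2f7 (0.20), a cell cycle repressor. For Sprr2d they were Sprr2h (0.36), Smim3 (0.54) and Sh2d5 (0.57). For Sprr2h they were Smim3 (0.30), the desmosomal cadherin Dsc2 (0.33) and the hyaluronan synthase Has3 (0.33). The TPA means of E2f7 (5.51), Sh2d5 (6.23), Has3 (6.46) and Smim3 (6.50) were near or under the background limit, where the size of a fall cannot be read. Sprr3 was flat, and its nearest genes were flat genes of higher signal (Hmgn1, Caprin1 and P2ry1). The points share 3 groups, so a small distance mostly reflects like group means.

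Markers of other cells that a sort could hold were read as well. Over all genes, 5.69% were called higher and 5.78% lower in EXPD4 against CTRL, and 10.2% and 10.6% in TPA against CTRL. Single calls in such short lists say little beside these shares. Of 10 macrophage and neutrophil markers, 2 (Cd14 and Cxcr2) were called lower in EXPD4 against CTRL, with a median of -0.51, and 4 in TPA against CTRL, with a median of -0.81. The 4 are the same pair with S100a8 and S100a9, which the alarmin list also holds, and 5 of the 10, Cxcr2 among them, were under the limit on every array. Their mean signal was 6.64 to 6.71 in EXPD4, 6.02 to 6.34 in TPA and 6.92 to 7.33 in CTRL arrays, and their part in the Sprr signals was not tested. Among markers of Langerhans and antigen-presenting cells, 2 of 8 were lower in EXPD4 and 1 in TPA. Of 7 measured T cell markers 1, Thy1, was higher in both. Of 8 pigment cell markers 1, Mitf, was called higher in TPA with every array under the limit, and of 8 fibroblast markers 1, Dcn, was higher in TPA, and 0 of either list were called in EXPD4. Of 6 endothelial markers 0 passed in either comparison with CTRL in limma, and their medians were -0.03 in EXPD4 and -0.78 in TPA. Of 7 gate and basal markers, 2 (Itga6 and Itgb4) were lower in EXPD4 and in TPA, and Itga6 was at 11.80 ± 0.04, 11.58 ± 0.09 and 12.27 ± 0.04 in the EXPD4, TPA and CTRL arrays.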

How the data were processed

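Basal epidermal cells of 8 mice (3 EXPD4, 2 TPA, 3 CTRL) were read on Affymetrix arrays from amplified cDNA of 300 sorted cells. The deposited values are log2 signals per probe set; RMA is named per the submitters' processing notes, and its version and settings are not given in the sources used here. Of 45141 probe sets, 28898 had 1 gene symbol and 551 had several; the probe set with the highest mean stood for each of 17097 genes. No further normalization was done. limma 3.58.1 in R 4.3.3 fitted 1 coefficient per group over all 8 arrays, with 5 residual and 3.54 prior degrees of freedom, two-sided tests and Benjamini-Hochberg adjustment over all genes of a comparison. The script was tested on simulated data. Residuals over all genes correlated at -0.179 to 0.031 between arrays with the same replicate number, and pairing was not tested for single genes. Named genes are the Sprr genes, the smallest p-values of each list, gate genes and nearest patterns; of these the text gives those beside a Sprr result. The members and lists were chosen with earlier results of these data known. Alternatives covered normalization, centring, filters, probe sets, variance prior, array weights, arrays fitted, the background limit, a replicate block, a fold of 1.5 and each array left out.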

Additional observations from a re-analysis of the deposited data

How the results depend on the processing

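The falls of Sprr1b, Sprr2d and Sprr2h in TPA against CTRL passed under every alternative run, with leave-one-out ranges of -2.64 to -2.32, -5.33 to -4.11 and -4.42 to -4.11. Tested against a fold of 1.5, the number of members called in EXPD4 against CTRL was 0, with Sprr1a at -1.57 (adjusted p = 0.229), Sprr1b at -0.999 (adjusted p = 0.384) and Sprr2h at -1.05 (adjusted p = 1), and Sprr1a at -1.64 did not pass in TPA (adjusted p = 0.111). That test called 173 genes in EXPD4 against CTRL, 596 in TPA against CTRL and 64 in EXPD4 against TPA, beside 1960, 3559 and 1022. With each probe set by itself, 2972 and 5816 were called against CTRL. In EXPD4 against TPA, 511 were called with only those groups and 541 with the replicate block. Leaving out 1 array gave 1261 to 2076, 2613 to 3344 and 560 to 922 genes in the 3 comparisons. With the replicate block Sprr2d passed in EXPD4 against CTRL at -0.84 (adjusted p = 0.008725). For Sprr2d and Sprr2h the replicate numbers ranked the arrays in the same order in every group. Residuals over all genes showed no such link, and pairing was not tested for single genes. Leaving out 1 array gave Sprr2h -1.34 to -0.81 in EXPD4 against CTRL, with 2 to 3 members called. Sprr1a in EXPD4 against TPA was -0.0724 with the replicate block and -0.33 to 0.47 with 1 array left out. Sprr3, under the limit throughout, turned sign in EXPD4 against CTRL with signals raised to the limit (-0.0507) and over -0.01215 to 0.0533 with 1 array left out, and in TPA against CTRL with quantile normalization (0.0114), centred arrays (0.0172) and over -0.0462 to 0.0193. With signals raised to the limit, Sprr3, Sprr2f, Sprr2i and Sprr2j-ps were at -0.0171 in EXPD4 against TPA. The filter on low signals gave no value for these 4 genes. Other causes of these shifts were not tested, and signals near background limit what Sprr2d and Sprr2h can show in TPA.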

Other observations

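Cytokine and STAT genes and markers of the upper hair follicle were measured as well. Beside them, 5.69% of all genes were called higher and 5.78% lower in EXPD4 against CTRL, and 10.2% and 10.6% in TPA against CTRL. Of 12 genes of the IL-6, IL-13 and STAT group, 2 were higher and 4 lower in EXPD4 against CTRL (median -0.24), and 2 were higher and 5 lower in TPA against CTRL (median -0.61). Of 10 measured infundibulum and upper follicle markers, 2 were higher and 2 lower in EXPD4 (median 0.08), and 3 were higher and 2 lower in TPA (median 0.81). Their mean signal was 8.07 to 9.01 in the EXPD4 arrays, 9.05 to 9.30 in the TPA arrays and 8.52 to 9.23 in the CTRL arrays. The EXPD4 arrays lay under the TPA arrays, and the CTRL arrays overlapped both.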
